A study of Mus musculus with 16 samples.

Results

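The subject is 9 liver genes of the methionine cycle and of the one-carbon steps around it, chosen by gene name: Mat1a, Gnmt, Pemt, Nnmt, Ahcy, Bhmt, Cbs, Cth and Shmt1. They were 9 of the 22612 genes in the deposited table, and all 9 passed the filter on low values, which asked for at least 1 TPM (a unit that scales reads to transcript length and every library to the same total) in at least 4 libraries of a comparison. RNA was sequenced from the livers of male C57BL/6 mice, which were bought at 7 weeks of age, kept for an acclimation week and then fed 1 of 4 regimens for 16 weeks, and which were fasted overnight before collection. The HK group changed every 2 weeks between a high-fat diet (58% of energy from fat) and a ketogenic diet (90.5% from fat). The HC group changed every 2 weeks between the same high-fat diet and chow (11% from fat). The H group ate the high-fat diet throughout, and the N group ate chow throughout. Each group had 4 libraries, while the labels give 6 mice per group and do not state that each library was its own mouse. The labels also do not say which diet the HK and HC mice ate last. P-values therefore measure the spread between these libraries.

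In the methionine cycle, methionine is activated to S-adenosylmethionine, the methyl donor of most methylation reactions. After the methyl group is given away, S-adenosylhomocysteine remains and is split to homocysteine. Homocysteine either takes a methyl group from betaine or folate and becomes methionine again, or is committed to cysteine by transsulfuration. The liver is the main site of this cycle, and several of its enzymes are made mostly by hepatocytes.

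Bhmt (betaine-homocysteine methyltransferase), which moves a methyl group from betaine, an oxidation product of choline, to homocysteine, was the member with the widest difference between diets. Cbs (cystathionine beta-synthase) starts the competing transsulfuration route. The sequences just upstream of these 2 genes are printed as context for that pair. They come from RefSeq windows on GRCm38.p6 that end at the RefSeq transcript start, and only the part that also lies upstream of the gene in GENCODE vM21 is shown, 47 bases for Bhmt (chr13:93637962-93638008, minus strand) and 217 bases for Cbs (chr17:31637239-31637455, minus strand). Capitals mark matches to the motifs that were searched on both strands.
Bhmt: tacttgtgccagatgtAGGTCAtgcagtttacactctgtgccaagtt
Cbs: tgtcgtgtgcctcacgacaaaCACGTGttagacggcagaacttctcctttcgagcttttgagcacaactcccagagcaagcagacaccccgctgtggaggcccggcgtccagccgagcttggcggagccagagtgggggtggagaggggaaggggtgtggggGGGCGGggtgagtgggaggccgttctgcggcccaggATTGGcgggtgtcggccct
One motif was AGGTCA, the half-site of many nuclear receptors. A second was CACGTG, which is called an E-box, and the third was GGGCGG, which factors of the Sp family bind. The fourth was TATAAA, found near some transcription starts. The fifth was ATTGG, which the factor NF-Y binds. The last was TGATGNAA, an element of the amino acid response. The whole Bhmt window of 250 bases held 3 matches to AGGTCA and 1 to ATTGG. Of its bases, 203 lie inside the GENCODE gene, and the 47 upstream of the gene hold 1 AGGTCA and 0 ATTGG. At least 1 AGGTCA was in 14% of 32544 mouse windows of the same length, and at least 3 were in 0.132% of them. These shares are of whole windows and do not describe the upstream part of Bhmt alone. The whole Cbs window held 0 matches to AGGTCA, 1 to CACGTG, 2 to GGGCGG and 2 to ATTGG, none of which overlapped. CACGTG was in 6.03% of all windows, at least 2 GGGCGG in 16.9% and at least 2 ATTGG in 10% of them. A match describes the letters alone, and no binding was measured. Gnmt and Ahcy each had 1 match to AGGTCA, and Shmt1 had 4 to GGGCGG, 2 of which overlapped by a base.

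In mm10 (GENCODE vM21) all 9 genes are annotated as protein-coding. Bhmt (ENSMUSG00000074768) spans chr13:93616675-93637961, Gnmt chr17:46725664-46729168 and Mat1a chr14:41105035-41124412. Cbs lies at chr17:31608894-31637238 and Cth at chr3:157894248-157925077. Pemt lies at chr11:59970614-60046489, Ahcy at chr2:155059310-155074497, Shmt1 at chr11:60788104-60811718 and Nnmt at chr9:48591877-48605153.

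The libraries held 10575 to 11695 genes at 1 TPM or more. Within groups, pairs of libraries had a Pearson r of 0.961 to 0.990 over genes, which are not independent. N replicate 3 had 18.4% of its TPM in mitochondrially encoded genes, against 13.6% or less in every other library. The depth of sequencing cannot be read from TPM and is unknown. The summed level of 9 hepatocyte markers was 106759 to 119947 TPM in HK, 132123 to 145894 TPM in HC, 109651 to 150009 TPM in H and 123557 to 134434 TPM in N. Of 4 adipocyte markers, Lep was at 0 in all 16 libraries and the summed level was at most 1.23 TPM. Of 4 exocrine pancreas markers, Pnlip and Prss1 were at 0 in all 16 and Cpa1 in 15, while Cela1 was at 9.55 to 32.0 TPM. In bulk tissue, fewer cells of a type and less RNA per cell cannot be told apart.

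One H library, replicate 3, stood apart from the other 3 for most of the members. Its level was 2.53 times the mean of the other H libraries for Mat1a, 2.22 times for Gnmt, 2.13 times for Cth and 2.00 times for Cbs. Nnmt, Bhmt and Ahcy were also highest in it, at 1.65, 1.58 and 1.44 times, so that 7 of the 9 genes peaked in that library. Shmt1 at 1.04 times and Pemt at 0.995 times did not follow. The pattern was wider than these enzymes. Of all genes with a mean of at least 1 TPM in H, 52.3% were highest in H replicate 3, against 10.6%, 13.6% and 23.5% in H replicates 1, 2 and 4. Its hepatocyte marker sum of 150009 TPM was also the highest of the 4, and the part of this in the results was not tested. After division by median-of-ratios size factors, Mat1a stood at 2304 in H replicate 3 and at 1123 to 1184 in the other H libraries. Cbs was less far apart after that division, at 289 in H replicate 3 and at 147 to 217 in the other H libraries. The size factor was 1.14 in H replicate 3, against 0.786, 0.888 and 1.03 in H replicates 1, 2 and 4. Each ratio above is therefore smaller after the division, and the count of 7 genes describes undivided TPM alone. Printed fold changes of the 9 genes that involve H are given both ways where they changed by over 1.5 times or changed call without H replicate 3. That library was singled out by the values of these genes, so a call gained by leaving it out is a description and not a separate test.

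**Figure D1:**
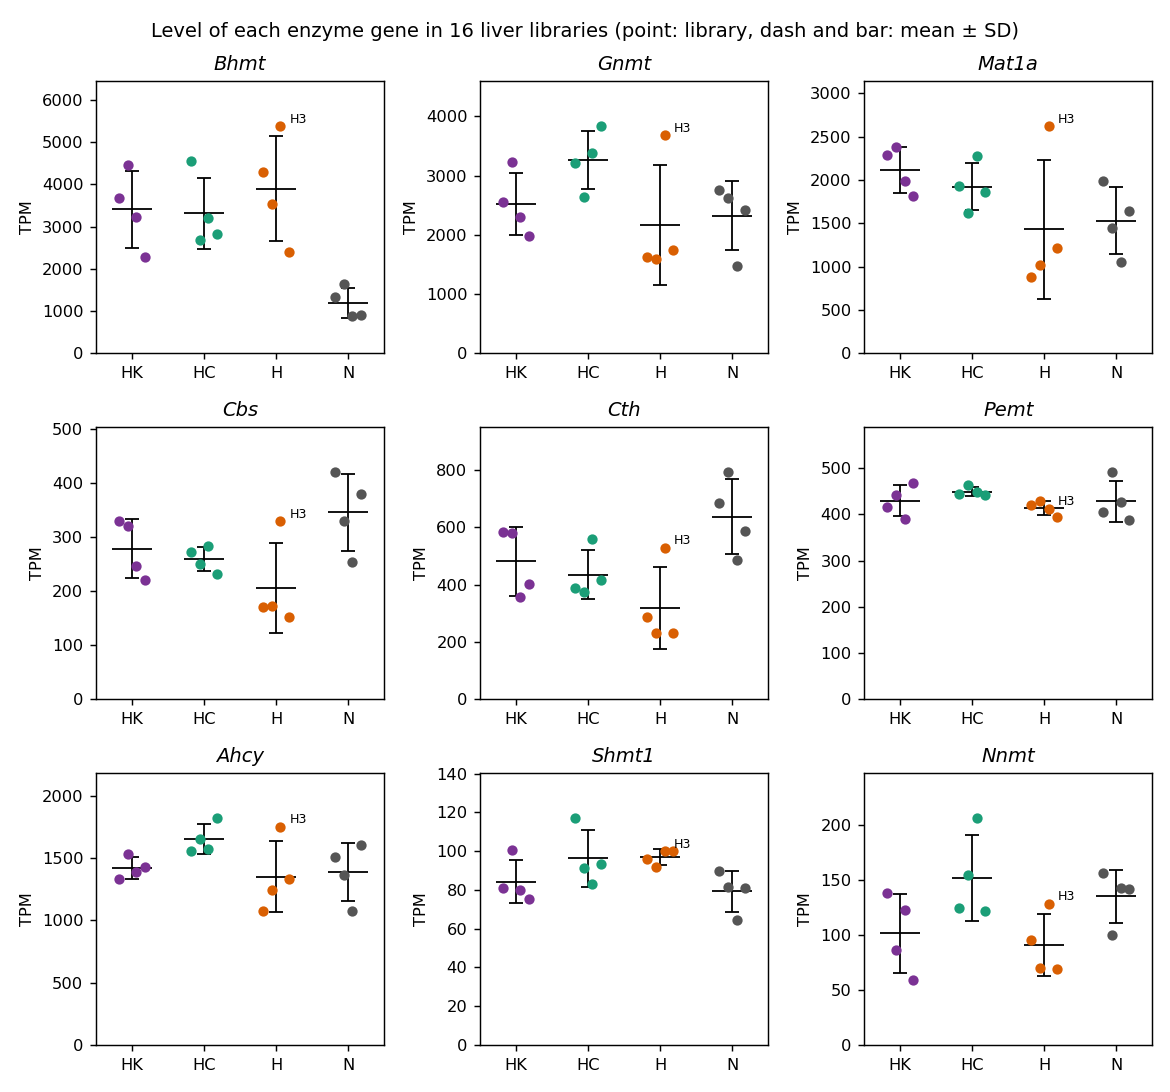
Level in TPM (linear axis) of each of the 9 genes by diet group, with a point for each library and a dash and bar for the mean and SD of 4 libraries. The 4 HK, 4 HC and 4 H libraries of Bhmt sit at 2269.6 TPM or more, all above the N libraries, whereas H replicate 3, labelled H3, sits above the other H libraries for 7 of the genes.

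Together the 9 transcripts made up 1.08 ± 0.188% of all TPM in HK, 1.15 ± 0.114% in HC, 0.997 ± 0.334% in H and 0.805 ± 0.154% in N (SD, n = 4 each). The lowest library was N replicate 3, the one rich in mitochondrial transcripts, at 0.586% and the highest was H replicate 3 at 1.49%. TPM is scaled to transcript length, so levels can be compared between genes. Over the 16 libraries the medians were 3015 TPM for Bhmt, 2587 TPM for Gnmt, 1836 TPM for Mat1a and 1468 TPM for Ahcy, which were the 4 most abundant. Cth at 452 TPM, Pemt at 428 TPM and Cbs at 263 TPM formed a middle tier. Nnmt at 123 TPM and Shmt1 at 90.4 TPM were the lowest.

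Remethylation with betaine is the step of Bhmt. Its level was 3673, 4460.2, 3228 and 2269.6 TPM in the 4 HK libraries, 4543, 2690.1, 3194 and 2835 TPM in HC, and 4284, 3541, 5372 and 2399.6 TPM in H, against 1338, 1639.8, 888 and 898 TPM in N. Every library that had received the high-fat diet, continuously or in turns, was above every chow library, and the 3 fat-fed groups overlapped each other widely. The means were 3408 ± 914 TPM in HK, 3316 ± 845 TPM in HC, 3899 ± 1251 TPM in H and 1191 ± 365 TPM in N (SD, n = 4 each). Bhmt ranked between the 28th and 63rd most abundant gene of a library in the fat-fed groups, and between the 76th and 135th in N.

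Bhmt rose in all 3 comparisons with chow, which share the same 4 N libraries. The log2 fold change, on the log2(TPM + 1) scale, was 1.52 for HK over N (SE 0.244, 95% interval 0.99 to 2.06, limma adjusted p = 0.00543). It was 1.49 for HC over N (SE 0.223, 1.01 to 1.98, limma adjusted p = 0.0111). It was 1.70 for H over N (SE 0.276, 1.09 to 2.31, limma adjusted p = 0.0149). As fold changes these were 2.88 for HK, 2.82 for HC and 3.25 for H. Among all genes tested, 3.67% passed as higher and 1.33% as lower in HK over N, 0.644% and 0.516% in HC over N, and 0.575% and 0.484% in H over N. Bhmt was the only 1 of the 9 members to pass in each. Genes with non-overlapping groups made up 13.3%, 8.48% and 8.22% of those tested in the same 3 comparisons.

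The 3 fat-fed groups did not differ detectably in Bhmt. The log2 fold change was -0.18 for HK over H (95% interval -0.76 to 0.41, limma adjusted p = 0.730), -0.21 for HC over H (-0.74 to 0.33, limma adjusted p = 1.00) and 0.03 for HK over HC (-0.45 to 0.50, limma adjusted p = 0.934). Without H replicate 3 the first was -0.0018 (limma adjusted p = 0.997) and the second -0.03 (limma adjusted p = 0.988). In 1 test over all 4 groups, Bhmt had a moderated F of 17.7 (limma adjusted p = 0.0027) and ranked 72nd of 11450 genes, of which 3.87% passed. The other 8 members had adjusted p-values between 0.0763 for Cth and 0.796 for Pemt in that test.

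The direction of Bhmt over chow was the same in every alternative run, but the call for H over N depended on single libraries. Without H replicate 2 its limma adjusted p was 0.0653, and without N replicate 4 it was 0.0716. The log2 fold change was 1.53 to 1.91 over the 8 fits that left out 1 library. H replicates 1 and 2 and N replicates 2 and 3 hold over 33% of their TPM in 20 genes. Without these 4 libraries the limma adjusted p for H over N was 0.155, from fewer libraries in each group, and the log2 fold change was 1.71. With no filter on low values, the limma adjusted p was 0.0745 for H over N and 0.0779 for HC over N, neither of which passed, and 0.0338 for HK over N. Kupffer cell markers, 7 genes of the resident liver macrophage, summed to 87.3 to 317 TPM in HK, 96.3 to 142 TPM in HC and 118 to 245 TPM in H, against 74.5 to 235 TPM in N, with 0 of 7 passing in any comparison. Of the 9 hepatocyte markers, 1 passed as higher and 1 as lower in HK over N, 2 as higher in HC over N and 1 as higher in H over N. Of 2 tested markers of recruited macrophages, 1 passed as lower in HK over N. The part of these marker genes in the Bhmt result was not tested.

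**Figure D2:**
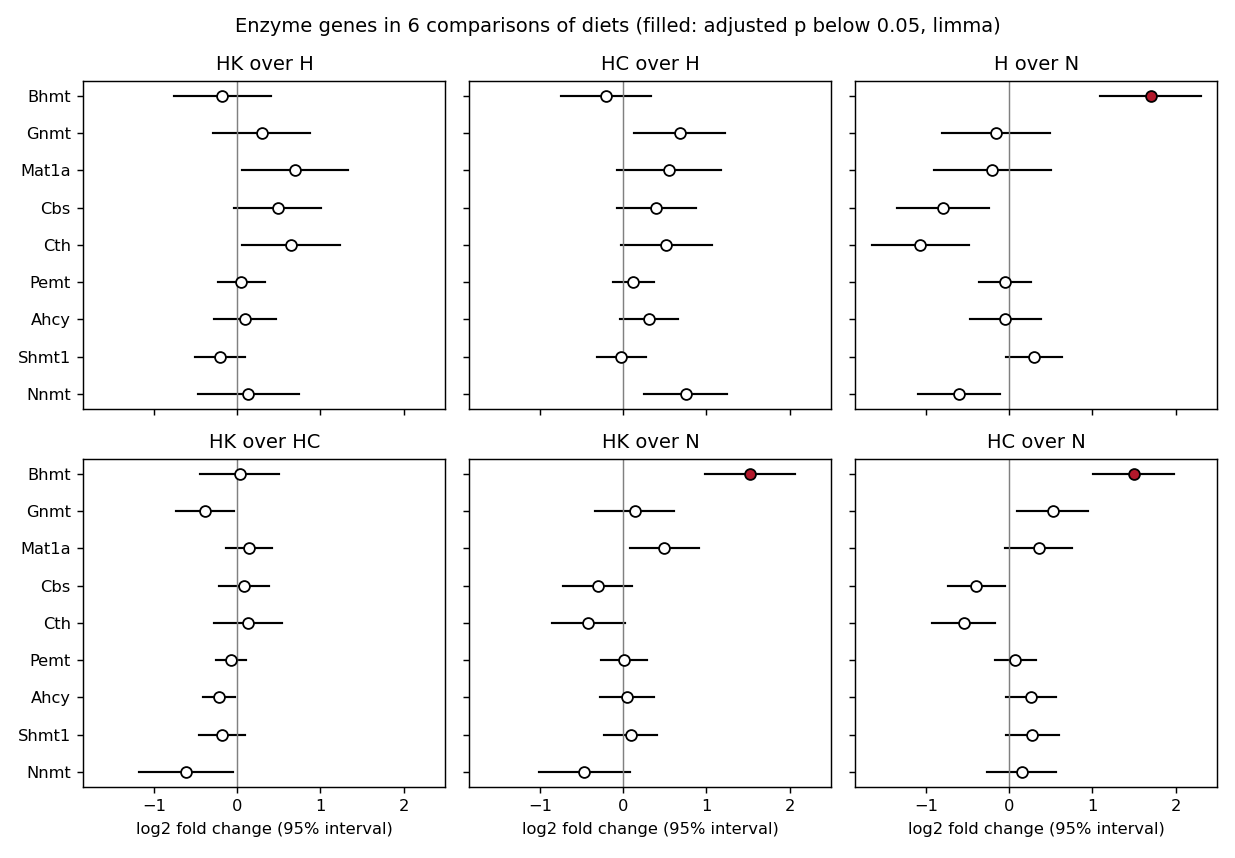
Log2 fold change with its 95% interval for each gene in the 6 comparisons, where filled points have a limma adjusted p below 0.05. Bhmt is filled in HK over N (1.52), HC over N (1.49) and H over N (1.70), and every other point is open.

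Transsulfuration uses Cbs, which joins homocysteine with serine to cystathionine, and Cth (cystathionine gamma-lyase), which releases cysteine from cystathionine. Their levels ran the opposite way to Bhmt between H and N, although neither passed with all libraries. Cth was at 586, 582, 357 and 402 TPM in HK, 387, 375, 560.2 and 417 TPM in HC, and 286, 231, 529.8 and 230.2 TPM in H, against 685, 793, 487 and 586 TPM in N. In Cth, 3 of the 4 H libraries were below every N library, and H replicate 3 overlapped N. The log2 fold change of Cth was -1.06 for H over N (SE 0.267, 95% interval -1.65 to -0.48, limma adjusted p = 0.110). It was -0.42 for HK over N (-0.86 to 0.03, adjusted p = 0.250) and -0.55 for HC over N (-0.93 to -0.17, adjusted p = 0.194).

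Cbs was at 329, 319.7, 246 and 219 TPM in HK, 271, 249.6, 283 and 232 TPM in HC, and 170.5, 172, 329 and 151 TPM in H, against 419.6, 329.8, 254 and 379 TPM in N. Again 3 of the 4 H libraries were below every N library, and H replicate 3 was above the lowest of them. Its log2 fold change was -0.79 for H over N (SE 0.252, 95% interval -1.35 to -0.24, limma adjusted p = 0.219), -0.31 for HK over N (-0.72 to 0.10, adjusted p = 0.348) and -0.39 for HC over N (-0.74 to -0.05, adjusted p = 0.316).

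Leaving out H replicate 3, which was singled out by its levels of these same genes, changed both calls. In the other 7 of the 8 fits that left out 1 library neither gene passed. The limma adjusted p reached 0.305 for Cth and 0.537 for Cbs. Without H replicate 3, Cth was -1.34 (limma adjusted p = 0.0102) and Cbs -1.04 (limma adjusted p = 0.0326) for H over N. Bhmt still passed at 1.53 (limma adjusted p = 0.0238). In the test over all 4 groups without that library, the limma adjusted p was 0.00549 for Cth and 0.00975 for Cbs. Cth also passed with all libraries when H over N was taken from 1 fit to all 16 (limma adjusted p = 0.0247). Without N replicates 2 and 3, Cbs passed in HC over N at -0.63 (limma adjusted p = 0.0458).

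**Figure D3:**
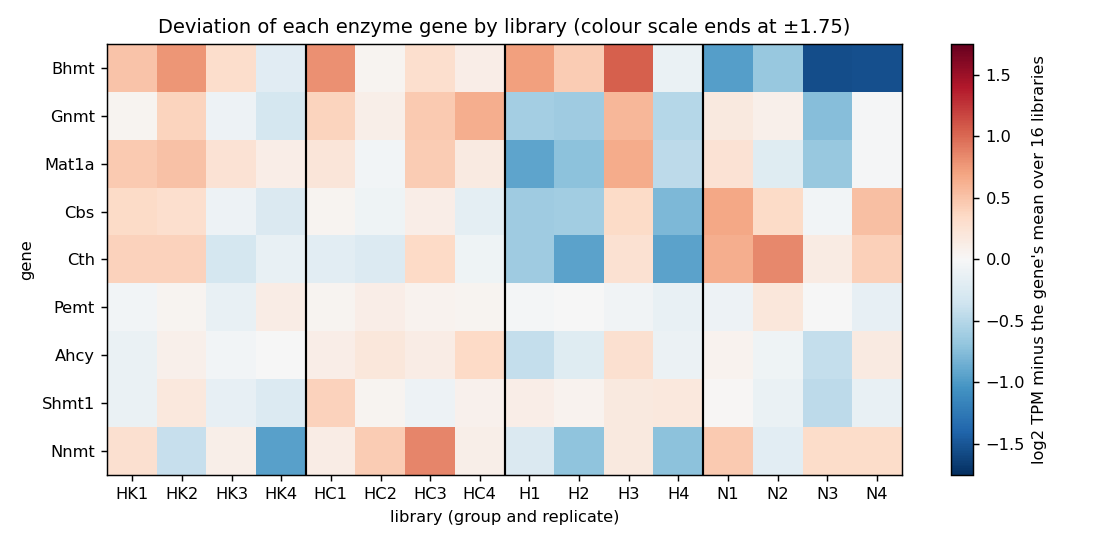
Colour map of log2 TPM minus each gene's own mean over 16 libraries, with genes in rows and libraries in columns (red above, blue below the mean). The Bhmt row is deepest blue in the 4 N libraries, and H3 (H replicate 3) differs from its neighbours H1, H2 and H4 in the rows of Mat1a, Gnmt, Cbs and Cth.

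A ratio of 2 genes within a library does not depend on how the library is scaled. The ratios described here were chosen after the values were seen, so they carry no test. The level of Bhmt divided by that of Cbs was 11.2, 14.0, 13.1 and 10.3 in HK, 16.7, 10.8, 11.3 and 12.2 in HC, and 25.1, 20.6, 16.3 and 15.9 in H, against 3.19, 4.97, 3.50 and 2.37 in N. No fat-fed library overlapped a chow library, and H replicate 3, at 16.3, lay within the range of its group. The ratio of Bhmt to Cth was 6.27, 7.67, 9.04 and 5.65 in HK, 11.7, 7.17, 5.70 and 6.79 in HC, and 15.0, 15.3, 10.1 and 10.4 in H, against 1.95, 2.07, 1.83 and 1.53 in N. Its means were 7.16 ± 1.51 in HK, 7.85 ± 2.67 in HC, 12.7 ± 2.82 in H and 1.84 ± 0.231 in N (SD, n = 4 each). By contrast, the ratio of Cth to Cbs, the 2 transsulfuration genes, averaged 1.72 ± 0.181 in HK, 1.68 ± 0.259 in HC, 1.54 ± 0.145 in H and 1.88 ± 0.387 in N.

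**Figure D4:**
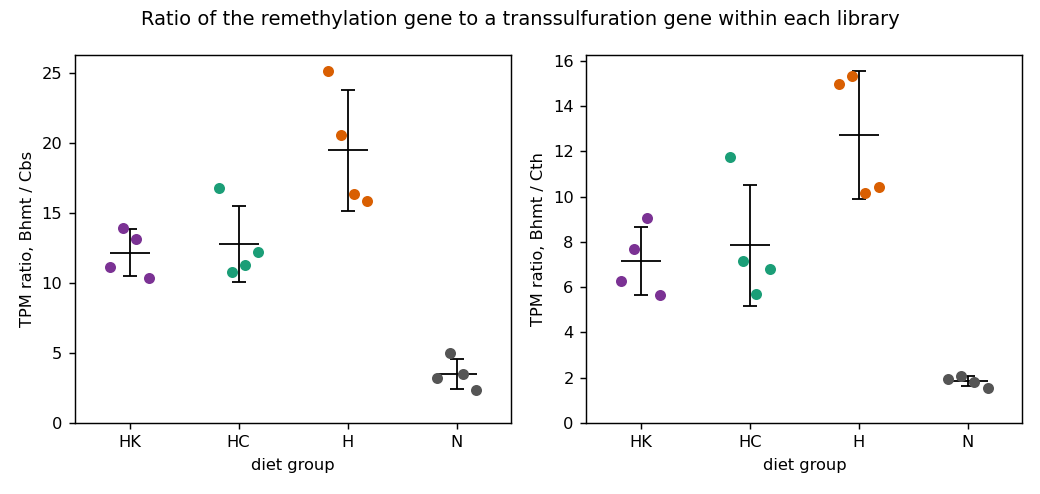
Ratio of the TPM of Bhmt to that of Cbs (left) and Cth (right) in each library, by diet group, with the mean and SD of 4 libraries. The N libraries lie at or below 4.97 for Cbs and 2.07 for Cth, and the fat-fed libraries lie at or above 10.3 and 5.65.

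Synthesis of S-adenosylmethionine in adult hepatocytes is the step of Mat1a (methionine adenosyltransferase). It was at 2284, 2384, 1987 and 1812 TPM in HK, 1931, 1618, 2278 and 1861 TPM in HC, and 882, 1014, 2619 and 1214 TPM in H, against 1986, 1447, 1051 and 1641 TPM in N. The HK libraries were close together and 3 H libraries were below all HK libraries, while the fourth H library, replicate 3, was above them. The means were 2117 ± 264 TPM in HK, 1922 ± 273 TPM in HC, 1432 ± 803 TPM in H and 1531 ± 389.9 TPM in N (SD, n = 4 each). The log2 fold change was 0.70 for HK over H (SE 0.290, 95% interval 0.06 to 1.33, limma adjusted p = 0.486) and 0.55 for HC over H (-0.07 to 1.18, limma adjusted p = 1.00). Without H replicate 3 these were 1.03 (limma adjusted p = 0.0467) and 0.89 (limma adjusted p = 0.0466), both past the threshold. Without H replicates 1 and 2, which hold over 33% of their TPM in 20 genes, HK over H was 0.24 (limma adjusted p = 1.00), and with median-of-ratios scaling it was 0.46 (limma adjusted p = 0.822). For HK over N it was 0.50 (0.08 to 0.91, limma adjusted p = 0.161), and it passed only when N replicate 1 was left out, at 0.63 (limma adjusted p = 0.0361). It was 0.33 without N replicate 3 (limma adjusted p = 0.314), 0.22 without N replicates 2 and 3 (limma adjusted p = 0.614) and 0.32 with that scaling (limma adjusted p = 0.212).

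Gnmt (glycine N-methyltransferase) uses S-adenosylmethionine to methylate glycine and is regarded as the overflow valve for methyl groups in liver. It was at 2552, 3227, 2304 and 1989 TPM in HK, 3209, 2639.8, 3377 and 3832 TPM in HC, and 1633, 1594, 3681 and 1742 TPM in H, against 2765, 2621, 1471 and 2419 TPM in N. Of the H libraries, 3 lay between 1594 and 1742 TPM, below every HK and HC library, and H replicate 3 lay among the HC libraries. The means were 2518 ± 526 TPM in HK, 3264 ± 492 TPM in HC, 2162 ± 1014 TPM in H and 2319 ± 583 TPM in N (SD, n = 4 each). The log2 fold change was 0.68 for HC over H (SE 0.252, 95% interval 0.13 to 1.23, limma adjusted p = 1.00) with all libraries. Without H replicate 3 it was 0.97 (limma adjusted p = 0.0159), and without H replicates 1 and 2 it was 0.35 (limma adjusted p = 0.512). It was 0.52 for HC over N (0.09 to 0.95, limma adjusted p = 0.286) and -0.38 for HK over HC (-0.73 to -0.03, limma adjusted p = 0.144), neither of which passed. Without N replicate 3, HC over N was 0.32 (limma adjusted p = 0.307), and with median-of-ratios scaling HK over HC was -0.59 (limma adjusted p = 0.0795).

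Nnmt (nicotinamide N-methyltransferase) spends a methyl group of S-adenosylmethionine on nicotinamide. It was at 139, 86.4, 123 and 58.8 TPM in HK, 124, 155, 207 and 122 TPM in HC, and 95.6, 69.7, 128 and 68.9 TPM in H, against 157, 100.5, 142 and 142 TPM in N. All groups overlapped, with HC highest on average at 152 ± 39.4 TPM and H lowest at 90.7 ± 28.1 TPM (SD, n = 4 each). For Nnmt, 3 differences had intervals that left out 0 and none of them passed over all genes. These were 0.75 for HC over H (95% interval 0.26 to 1.25, limma adjusted p = 0.982), -0.62 for HK over HC (-1.18 to -0.05, limma adjusted p = 0.145) and -0.60 for H over N (-1.10 to -0.11, limma adjusted p = 0.311). Without HK replicate 4, HK over HC was -0.38 (limma adjusted p = 0.199).

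Pemt (phosphatidylethanolamine N-methyltransferase), which makes phosphatidylcholine with methyl groups from S-adenosylmethionine, had the narrowest spread of the 9. It was at 416, 443, 391 and 469 TPM in HK, 443, 464, 448 and 443 TPM in HC, and 419.7, 428, 412 and 394 TPM in H, against 405, 491, 428 and 388 TPM in N. The group means lay between 413 ± 14.6 TPM in H and 449.5 ± 9.63 TPM in HC (SD, n = 4 each). The HC libraries were all above the H libraries, by a log2 fold change of 0.12 (95% interval -0.12 to 0.37, limma adjusted p = 1.00), in a comparison where 3.02% of genes had non-overlapping groups. Over all 6 comparisons the interval of Pemt never reached beyond -0.36 or 0.37, and its smallest limma adjusted p was 0.577.

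Ahcy (adenosylhomocysteinase) splits S-adenosylhomocysteine to adenosine and homocysteine. It was at 1328, 1534, 1388 and 1430.1 TPM in HK, 1559.5, 1652, 1572 and 1821 TPM in HC, and 1075, 1241, 1749 and 1334 TPM in H, against 1506, 1363, 1075 and 1604 TPM in N. Every HK library was below every HC library, while H and N overlapped both. The log2 fold change was -0.22 for HK over HC (SE 0.0887, 95% interval -0.41 to -0.02, limma adjusted p = 0.143), and -0.42 with median-of-ratios scaling (limma adjusted p = 0.0917). The hepatocyte marker sums separated the same way, at 106759 to 119947 TPM in HK and 132123 to 145894 TPM in HC, and their part in this difference was not tested. In that comparison 5.04% of genes passed, 0 of the 9 members did, and 16.8% of genes had non-overlapping groups. An unadjusted p below 0.05 was found for 3 members, or 33.3%, beside 29% of all genes.

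Shmt1 (cytosolic serine hydroxymethyltransferase) passes a one-carbon unit of serine to folate, which feeds the other, folate-dependent way of remethylating homocysteine. It was at 81.1, 100.6, 80.2 and 75.2 TPM in HK, 117, 91.1, 83.3 and 93.4 TPM in HC, and 95.9, 91.9, 99.9 and 100.3 TPM in H, against 89.7, 81.5, 64.5 and 81.0 TPM in N. Every H library was above every N library, by a log2 fold change of 0.30 that did not pass (95% interval -0.04 to 0.63, limma adjusted p = 0.494). In that comparison 8.22% of genes had non-overlapping groups. The smallest limma adjusted p of Shmt1 in any comparison was 0.323.

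The comparisons among the 3 fat-fed groups gave no call for any member with all libraries. In HK over H, limma passed 0 of 9 members and 0.0360% of all genes, and 2 members, or 22.2%, had an unadjusted p below 0.05, beside 10% of all genes. All 9 members overlapped between these groups, and 6.85% of all genes did not. In HC over H, it passed 0 of 9 and 0.0459% of all genes, and 2 members had an unadjusted p below 0.05, beside 4.15% of all genes. These 2 comparisons share the H libraries. The median log2 fold change of the 9 genes was 0.14 for HK over H, where the median of all genes was 0.21, and 0.40 for HC over H, where it was 0.02. For HK over HC it was -0.07, beside 0.19 for all genes. Over N it was 0.05 in HK, 0.26 in HC and -0.16 in H, beside 0.15, -0.04 and -0.05 for all genes. Without H replicate 3 the members' median was 0.32 for HK over H, 0.65 for HC over H and -0.45 for H over N, beside 0.28, 0.09 and -0.13 for all genes. Division by median-of-ratios size factors brings the median of all genes near 0 by design. It was then 0.00 for HK over H, 0.01 for HK over HC and 0.00 for HK over N. Where the shifts of all genes came from was not tested. With that scaling Bhmt was 1.35 for HK over N (limma adjusted p = 0.0117).

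Most of the members were read almost entirely from 1 transcript. On average over 16 libraries, 1 transcript held 99.3% of the TPM of Bhmt, 99.1% of Gnmt, 99.4% of Cth, 99.5% of Ahcy, 97.6% of Pemt and 94.98% of Shmt1. Mat1a was divided between ENSMUST00000047286, with 75.9%, and ENSMUST00000225720, with 23.3%. The share of the first ranged from 59.7% to 88.6% within the H group alone. Nnmt was divided 70.2% to 29.4% between a pair of transcripts. Cbs was spread over 3, with 44.5%, 37.4% and 11.8%. The share of its transcript ENSMUST00000078509 was 47.8 ± 9.73% in HK, 46.7 ± 10.5% in HC, 49.3 ± 8.85% in H and 34.0 ± 7.17% in N (SD, n = 4 each), with ranges that overlapped. Such shares are estimates from reads that several transcripts hold in common.

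The genes whose pattern over the 16 libraries was most like that of each member were found by the root mean square difference of standardised log2 values, among 10696 genes, where 0 is an identical pattern. Cbs and Cth were each other's first or second neighbour, at 0.390. Gnmt and Ahcy were each other's second neighbour, at 0.497. Bhmt was closest to Pxmp2, a peroxisomal membrane protein gene, at 0.355, and to Hfe2 at 0.396. Mat1a was closest to the gluconeogenic enzyme gene Fbp1 at 0.341 and to Metap2 at 0.370. Cth was closest to the fumarase gene Fh1 at 0.338. Gnmt was closest to the urea cycle gene Cps1 at 0.455, and Cbs had the glutaminase gene Gls2 as its second neighbour at 0.399. Ahcy was closest to Zfp68 at 0.479, and Nnmt to E2f5 at 0.511 and Mmp14 at 0.679. Shmt1 had Akr1d1 at 0.627 and Bmp1 at 0.629, and Pemt had Pmf1 at 0.757 and Ndufb8 at 0.761, and by the first neighbour these 2 members had the least similar one. Libraries that stand apart contribute to every such likeness.

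The surrounding pathway was read from 69 further genes in 10 lists, of which 67 were tested. None passed in HK over H, HC over H or H over N by limma, where 11.9%, 4.48% and 14.9% of the 67 had an unadjusted p below 0.05, near the 10%, 4.15% and 11.6% of all genes. In HK over HC 5 were higher and 0 lower, in HK over N 2 were higher and 2 lower, and in HC over N 1 was higher and 2 lower. The share of all genes that passed as higher was 4.31% in HK over HC. It was 3.67% in HK over N and 0.644% in HC over N, and 1.33% and 0.516% passed as lower. For HK over HC, HK over N and HC over N, 37.3%, 29.9% and 25.4% of the 67 had an unadjusted p below 0.05. The shares of all genes were 29%, 22.2% and 12.3%. Markers of the sinusoidal endothelium moved the same way in HK over HC, where 2 of 6 passed as higher and the median log2 fold change was 0.63. Their sums did not overlap, at 105 to 152 TPM in HK and 60.1 to 88.1 TPM in HC. The median was 0.82 for 7 Kupffer cell markers and -0.33 for 9 hepatocyte markers, with 0 passing, beside 0.19 for all genes. The part of these markers in the pathway calls was not tested. None of the 12 tested folate genes passed in any comparison, and their median log2 fold change lay between -0.10 and 0.08.

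In the betaine and choline arm, Bhmt2, a close paralog that in mammals uses S-methylmethionine to methylate homocysteine, was at 177, 188, 164 and 138 TPM in HK, against 118, 94.4, 62.2 and 101 TPM in N. The groups did not overlap, as for 13.3% of all genes tested in HK over N. Bhmt2 rose with a log2 fold change of 0.85 (SE 0.191, limma adjusted p = 0.0267). For H over N it was 0.75 (adjusted p = 0.223) and for HC over N 0.63 (adjusted p = 0.164). Bhmt and Bhmt2 are similar in sequence, so the division of reads between them is an estimate. Sardh, the sarcosine dehydrogenase that recovers the methyl group that Gnmt put on glycine, averaged 440.2 ± 65.6 TPM in HK and 267 ± 57.8 TPM in N and rose by 0.73 (limma adjusted p = 0.0375). For H over N, Sardh was 0.42 (limma adjusted p = 0.571) and for HC over N 0.43 (limma adjusted p = 0.269), neither of which passed. Chdh, the choline dehydrogenase that makes the precursor of betaine, averaged 92.1 ± 14.0 TPM in HK and 52.5 ± 9.04 TPM in HC and rose by 0.80 (limma adjusted p = 0.0141).

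Among users of S-adenosylmethionine outside the 9, Gamt, which methylates guanidinoacetate to creatine, was at 408, 348, 281 and 398 TPM in HC, against 135, 242, 213 and 156 TPM in N. It rose by 0.96 on the log2 scale (limma adjusted p = 0.0401). For H over N it was 0.93 (limma adjusted p = 0.211) and for HK over N 0.63 (limma adjusted p = 0.0746), neither of which passed. Among cysteine and sulfide genes, Gclc, the catalytic subunit of the first enzyme of glutathione synthesis, averaged 155 ± 23.0 TPM in HK and 106 ± 3.99 TPM in HC, a log2 fold change of 0.53 (limma adjusted p = 0.0198). In HC over N, where N averaged 191 ± 48.8 TPM, Gclc fell by 0.81 (limma adjusted p = 0.0407). Ethe1, a mitochondrial persulfide dioxygenase, averaged 49.9 ± 10.7 TPM in HK and 89.7 ± 11.9 TPM in N and fell by 0.84 (limma adjusted p = 0.0149). For H over N, Ethe1 was -0.66 (limma adjusted p = 0.264) and for HC over N -0.56 (limma adjusted p = 0.187), neither of which passed. Suox, the sulfite oxidase, averaged 90.0 ± 11.2 TPM in HK and 60.5 ± 10.7 TPM in HC and rose by 0.58 (limma adjusted p = 0.0439), named as the fifth call of that comparison after its value was seen.

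Downstream of Nnmt, the aldehyde oxidase Aox1, which oxidises methylated nicotinamide, was at 36.5, 46.2, 39.5 and 37.5 TPM in HK, against 23.5, 23.6, 24.3 and 26.2 TPM in HC. The 2 groups did not overlap, as for 16.8% of all genes tested in HK over HC. Aox1 was higher in HK by 0.69 (limma adjusted p = 0.00621). The HK mean of 40.0 ± 4.34 TPM was close to that of N, at 40.9 ± 9.56 TPM, with a log2 fold change of -0.01 (limma adjusted p = 0.976). The means were lower in HC, at 24.4 ± 1.25 TPM, and in H, at 26.1 ± 2.45 TPM, with log2 fold changes over N of -0.70 (limma adjusted p = 0.0700) and -0.61 (limma adjusted p = 0.204) that did not pass. Aox3, a more abundant aldehyde oxidase of the same list, is named although it did not pass. It averaged 185 ± 50.2 TPM in HK and 184 ± 37.4 TPM in HC, a log2 fold change of -0.01 (limma adjusted p = 0.966). On the phosphatidylcholine route beside Pemt, Chka, the choline kinase, was at 65.7, 28.7, 21.2 and 21.3 TPM in HK and 44.4, 35.4, 41.9 and 22.5 TPM in HC, against 72.5, 80.3, 75.1 and 70.8 TPM in N. It fell by 1.26 in HK over N (limma adjusted p = 0.0325) and by 1.07 in HC over N (limma adjusted p = 0.0253), and 3 of the 4 H libraries, at 70.2 to 80.0 TPM, were near the N level while the other was at 20.5 TPM. Pisd, which makes phosphatidylethanolamine from phosphatidylserine, averaged 27.1 ± 2.74 TPM in HK and 18.6 ± 2.80 TPM in HC and rose by 0.53 (limma adjusted p = 0.0435). Of these 12 calls, 11 were lost when at least 1 single library was left out, and Aox1 in HK over HC was kept in each of the 8 such fits (limma adjusted p between 0.00702 and 0.0245). Chdh lost its call without HK replicate 2 (limma adjusted p = 0.0519), and Ethe1 without HK replicate 3 (0.0602) or N replicate 2 (0.0532). All 4 calls of HK over N were lost without N replicates 2 and 3. With median-of-ratios scaling 4 of the 12 calls were lost, among them Gclc, Suox and Pisd in HK over HC, whose log2 fold changes were then 0.33, 0.37 and 0.33. With no filter on low values 8 were lost, in 1 fit to all libraries 7 were lost, and without the libraries over 33% in 20 genes 5 of the 7 calls over N were lost.

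**Figure D5:**
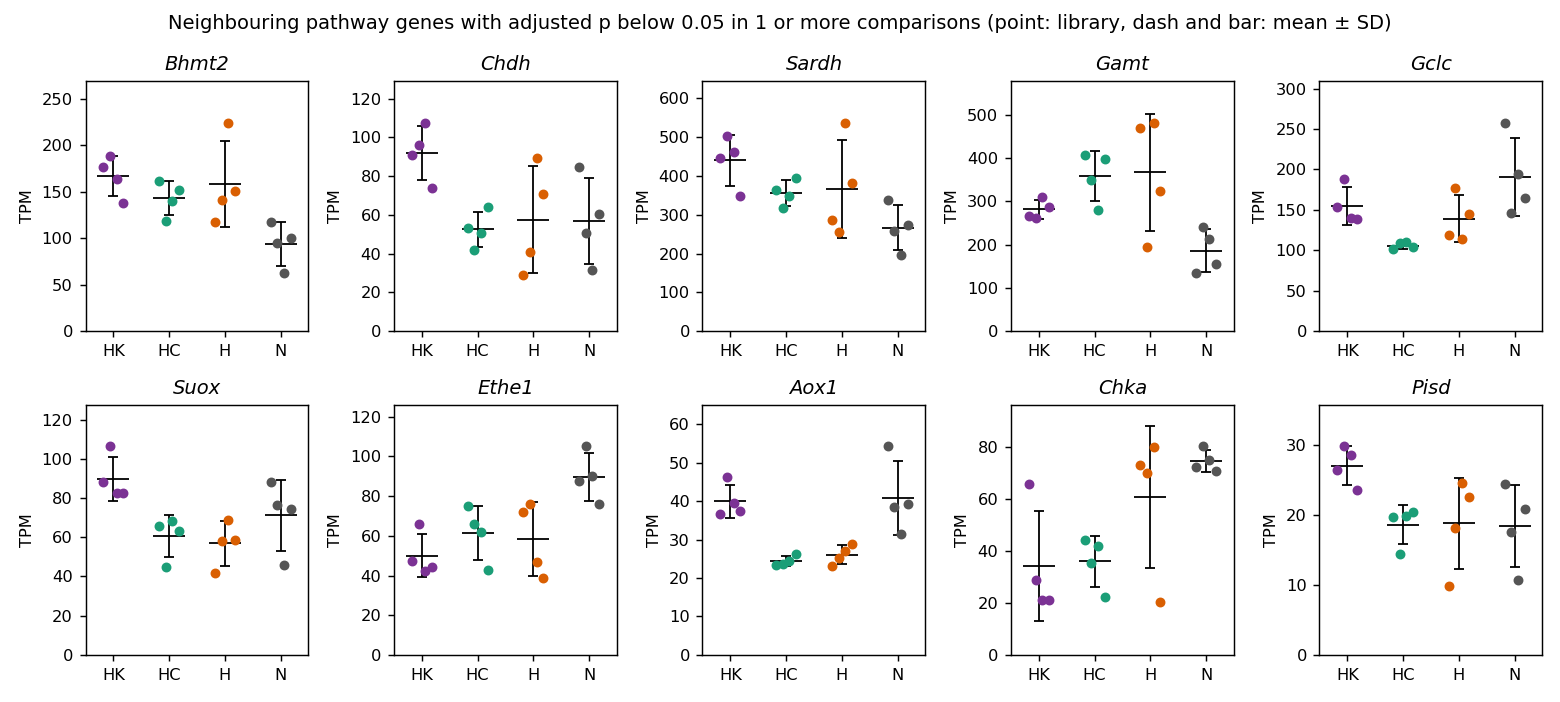
Level in TPM of the 10 surrounding pathway genes that passed in at least 1 comparison, by diet group, with a point for each library and the mean and SD of 4 libraries. Aox1 lies at 36.5 TPM or more in HK and at 26.2 TPM or less in HC, and Chka splits the HK and H groups, with 1 library of each far from the other 3.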

How the data were processed

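The deposited values are TPM per gene and per transcript in 16 libraries, where each library summed to 1000000. The series' design text names FPKM, so the unit differed from the stated one, and the test chosen for a normalised unit was used on TPM. Per the submitters' processing notes, the authors used HISAT2, RSEM 1.1.17 and edgeR 3.14.0 with mm10. TPM keeps no read depth, so no interval from counts is given.

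The log2 of TPM + 1 was analysed. A gene entered a fit where 4 or more of its libraries reached 1 TPM. Each of 6 comparisons (8 libraries) was fitted by limma (3.58.1, R 4.3.3, trend option), which also gave a moderated F test over all 16 libraries. P-values were two-sided and Benjamini-Hochberg adjusted over all genes kept, and a gene passed below 0.05 whatever its fold change. Fold changes understate those of genes near 1 TPM. The fitting steps were run on simulated data with independent normal noise for each gene. Those data held no library that deviates as a whole, so the run cannot show how calls behave with such libraries. Tables and figures used Python 3.11.15 with pandas 2.3.3, numpy 2.4.6 and matplotlib 3.10.9.

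All 9 members were named. Of the pathway lists, up to 4 passing genes per comparison with the smallest adjusted p were named, and for each member the 2 genes of most similar pattern. Suox and Aox3 were named outside this rule. The members, lists and tests were chosen with earlier results of these data known. Alternatives were another pseudocount (0.1), no filter, 1 fit to all libraries, a replicate block, median-of-ratios scaling, leaving out libraries with over 33% of TPM in 20 genes, and leaving out each library. Upstream sequences came from RefSeq tables on GRCm38.p6, which matched 6 of the 9 members by symbol. Mat1a, Cth and Nnmt had no match.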

Additional observations from a re-analysis of the deposited data

Results flagged for a closer look

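Within groups of 4 libraries, 36 sets (9 genes in 4 groups) were checked for a library whose gap to its nearest neighbour passed the critical value of Dixon's test at the 95% level, which chance passes in about 1 of 20 sets. Gnmt in H replicate 3, at 3681 TPM beside 1594 to 1742 TPM in the other H libraries, was such a library. Cbs in H replicate 3, at 329 TPM beside 151 to 172 TPM, was another. Both lie in the same library, in which 56.7% of 67 surrounding pathway genes were the highest of the H group, near the 52.3% of all genes. The check used TPM that was not divided by size factors. After that division Cbs was at 289 in H replicate 3, beside 147 to 217 in the other H libraries. The size factor of H replicate 3, at 1.14, was the largest of the H group, so the division also brings Gnmt in it nearer to the others. The check was not repeated on divided values, and both flags hold for undivided TPM alone.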

How the results depend on the processing

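Numbers of members that passed were 0 in H over N and 0 in HC over N with no filter, 2 in H over N in 1 fit to all libraries, and, without the libraries over 33% in 20 genes, 0 in H over N and 2 in HC over N. Leaving out 1 library gave 0 to 1 members in HK over H, 0 to 2 in HC over H, 0 to 3 in H over N, 1 to 2 in HK over N and 1 to 5 over all 4 groups. The cause of these changes was not tested. Numbers of all genes that passed, with no filter, were 1 in HK over H, 60 in H over N, 274 in HK over HC, 351 in HK over N and 3 in HC over N. In 1 fit to all libraries they were 9 in HK over H, 3 in HC over H, 380 in H over N and 97 in HK over HC. With median-ratio scaling they were 306 in HK over HC and 201 in HC over N, and without the libraries over 33% they were 1 in HC over H, 19 in H over N and 189 in HK over N. Leaving out 1 library gave 2 to 22 genes in HK over H, 3 to 32 in HC over H, 36 to 125 in H over N, 162 to 2513 in HK over HC, 181 to 1620 in HK over N, 32 to 242 in HC over N and 255 to 630 over all groups. Of the unpassed differences of Bhmt between fat-fed groups, HK over HC and HK over H changed sign. HK over HC was -0.18 with median-ratio scaling and -0.11 to 0.21 without 1 library, and HK over H was -0.39 to 0.0054 without 1 library. HC over H kept its sign, at -0.42 to -0.03 without 1 library.

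The replicate block changed no member's call but ended 6 of the 12 calls of surrounding pathway genes. Libraries of the same number had deviations that correlated with r between -0.58 and 0.386. Differently numbered libraries were not set beside these, so whether the numbers pair the samples cannot be told. With the block, 12 genes passed in HC over H, 43 in H over N, 181 in HK over HC and 295 over all groups. Bhmt kept its call (limma adjusted p = 0.0037 in HK over N, 0.00507 in HC over N and 0.0425 in H over N). With 4 libraries a group and unknown depth, differences whose interval includes 0 were not detectable here.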
